A study of Mus musculus with 9 samples.

Results

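The 5 genes described here encode a pair of secreted ligands and their receptor kinases: Gas6, Pros1 (protein S), Axl, Mertk and Tyro3. They were found by gene symbol among the probe sets of an Affymetrix mouse expression array, a probe set being a group of short probes that report 1 transcript. The 5 genes had 8 of the 34945 probe sets that carry a single symbol, out of 18193 genes in all. The genes were chosen with earlier results on these arrays known, in which Gas6 was among the largest rises under rapamycin. The differences of these 5 genes are therefore given as descriptions with their standard errors and with no test. Tests are given for other genes of the pathway. The lists of those genes were also chosen with earlier results known, so their p-values and counts are no independent support.

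The cells were BC3H1, a mouse brain tumour line with muscle-like properties, grown in medium with fetal bovine serum, and total RNA was hybridised to 9 arrays. Rapamycin binds FKBP12 and inhibits mTOR complex 1, a kinase that drives growth. Sensitive cells received the solvent DMSO for 24 h (RS_DMSO, 3 arrays) or 100 nM rapamycin for 24 h (RS_Rap, 3 arrays). A resistant line, RR1, was grown out of BC3H1 over 6 months in 1 uM rapamycin and was kept in it (RR_Rap, 3 arrays). The comparisons ask what the drug does to these genes in sensitive cells and how the resistant line differs. There was 1 resistant line, and line, dose and length of exposure cannot be told apart in it. The 3 comparisons share groups, so they are not independent of each other. Nothing in the labels ties the arrays to independent cultures, so their spread, and p-values with it, may be technical.

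Gas6 and protein S are vitamin K-dependent proteins: their amino-terminal Gla domain carries carboxylated glutamates that bind phosphatidylserine, a lipid exposed on dying cells and activated membranes. Their other end binds the TAM receptor tyrosine kinases, named after Tyro3, Axl and Mertk. Gas6 binds each of them and has its highest affinity for Axl, whereas protein S binds Tyro3 and Mertk. The receptors signal through phosphoinositide 3-kinase and AKT to survival, drive the engulfment of dying cells and restrain innate immune signalling. Gas6 got its name, growth arrest specific, as a transcript raised in fibroblasts deprived of serum.

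The start regions of the 4 genes whose signals moved together across the groups are shown as a description. Whether their letters bear on their signals was not tested. Each run covers 250 bases before and 50 bases after a RefSeq transcript start (assembly GRCm38.p6), 5′ to 3′ on the gene's strand. Capitals mark every match to 1 of 5 motifs on either strand: the GC box GGGCGG, the AP-1 motif TGANTCA, the E-box CACGTG, the FoxO motif GTAAACA and the TEAD motif GGAATG.
Gas6, chr8:13494486-13494785, minus strand: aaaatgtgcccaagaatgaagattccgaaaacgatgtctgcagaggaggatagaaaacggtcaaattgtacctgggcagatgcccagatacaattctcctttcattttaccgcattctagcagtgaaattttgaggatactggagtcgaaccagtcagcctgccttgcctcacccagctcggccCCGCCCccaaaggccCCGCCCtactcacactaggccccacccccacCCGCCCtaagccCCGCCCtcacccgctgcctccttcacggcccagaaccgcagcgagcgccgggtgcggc
Pros1, chr16:62854057-62854356, plus strand: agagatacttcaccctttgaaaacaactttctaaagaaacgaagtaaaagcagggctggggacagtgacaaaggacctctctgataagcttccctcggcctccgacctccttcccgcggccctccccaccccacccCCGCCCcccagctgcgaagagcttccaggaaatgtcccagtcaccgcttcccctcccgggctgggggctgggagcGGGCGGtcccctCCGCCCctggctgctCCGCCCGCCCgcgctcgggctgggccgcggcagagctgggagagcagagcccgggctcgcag
Axl, chr7:25788684-25788983, minus strand: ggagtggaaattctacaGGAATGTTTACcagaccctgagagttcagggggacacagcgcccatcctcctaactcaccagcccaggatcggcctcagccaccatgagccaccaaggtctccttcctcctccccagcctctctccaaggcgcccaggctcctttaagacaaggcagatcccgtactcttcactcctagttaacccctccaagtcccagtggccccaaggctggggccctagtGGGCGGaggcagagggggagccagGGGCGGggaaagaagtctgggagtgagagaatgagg
Mertk, chr2:128698665-128698964, plus strand: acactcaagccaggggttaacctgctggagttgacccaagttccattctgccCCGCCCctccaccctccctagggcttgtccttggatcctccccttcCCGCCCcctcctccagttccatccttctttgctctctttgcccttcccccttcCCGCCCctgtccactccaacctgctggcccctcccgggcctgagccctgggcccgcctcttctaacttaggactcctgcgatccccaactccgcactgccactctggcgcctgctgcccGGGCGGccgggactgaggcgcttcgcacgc

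The capitals in Gas6, Pros1 and Mertk are GC boxes, the motif bound by Sp1 and related factors. Gas6 held 4 matches, Pros1 5 (the last pair overlapping by letters), Axl 2 and Mertk 4, and Tyro3, on chromosome 2 like Mertk, held 6. A GC box was present in 35.7% of 32851 RefSeq promoter windows of the same length. In Axl a TEAD match that starts 233 bases before the transcript start runs into a FoxO match on the other strand that begins 229 bases before it, so these letters overlap. Those motifs were found in 14.7% and 3.65% of all windows. No AP-1 or E-box letters (7.81% and 7.15% of windows) lay in the windows of these 5 genes, which says only that the letters are not there. The GC content was 58.3% for Gas6, 66.7% for Pros1, 60.3% for Axl, 66.0% for Mertk and 73.3% for Tyro3, against a median of 52.7% over all windows.

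The trimmed mean of every array was 250. The median signal was 33.4 to 44.2 on 8 arrays and 66.0 on the third DMSO array, where 17.4% of probe sets read under 16 (elsewhere 29.4% to 34.8%). Arrays of a group correlated at 0.955 to 0.980 (DMSO), 0.976 to 0.980 (sensitive, rapamycin) and 0.987 (resistant) over 12715 genes. Of 11 muscle markers 9 lay above the filter on dim probe sets, a mean signal of about 22.2, and Myod1 and Myh11 did not. The summed signal of the 11 was 24160 to 32690 in DMSO, 29420 to 29740 in sensitive rapamycin and 8568 to 10270 in resistant cells. Acta2, at 15000 ± 2660 in DMSO cells, was its largest part there. In the resistant line against DMSO cells 7 of the 9 were called lower. Myog was higher, at 98.9 ± 9.51 against 6.50 ± 4.85 (2.37 ± 0.41, adjusted p = 9.93e-05). Its means in both sensitive groups (6.50 and 17.8) lay under the filter. It passed only through the resistant arrays where it was high, so its p-value is no support. Myf5 was not called (-0.25 ± 0.18, adjusted p = 0.277). Of 11 macrophage markers, from cells known for Mertk and Axl, 6 lay above it, and Ptprc, Itgam, C1qa, C1qb and Tyrobp did not. The macrophage sum was 909 to 1378, 859 to 919 and 410 to 541 in the same order. Cd14, at 607 ± 28.9 in DMSO cells its largest part there, fell in the resistant line (log2 change -1.95 ± 0.11, adjusted p = 8.18e-11). Lyz2 was lower too (-0.88 ± 0.20, adjusted p = 0.00117), and the other 4 tested macrophage markers were not called. Of 6 endothelial markers only Kdr passed the filter, and their sum overlapped between the groups (70.86 to 229.3, 55.97 to 127.7 and 69.45 to 122.7). Sox10 and Mbp, of Schwann cells and oligodendrocytes, summed to 109 to 292, 151 to 172 and 19.67 to 34.95. The neuron sum was 230.2 to 528.8, 237.5 to 248.6 and 174.6 to 208.5. The astrocyte sum was 24.59 to 166.2, 87.11 to 95.08 and 66.14 to 75.41, so resistant and DMSO cells overlapped. The muscle, macrophage, Schwann and neuron sums were lower in the resistant line, as many of the results below are. Their part in those results was not tested. In bulk RNA, fewer cells of a type and less RNA per cell cannot be told apart.

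Gas6 showed the widest range of the 5 genes. The signals of its bright probe set, 1417399_at, were 215, 225 and 224 on the DMSO arrays. They were 910, 870 and 864 on the sensitive rapamycin arrays and 103, 142 and 141 on the resistant arrays. All 3 groups were separate, in the order resistant, DMSO, sensitive rapamycin. The mean was 221 ± 5.36 (SD, n = 3) in DMSO and 881 ± 24.9 in sensitive rapamycin cells, a ratio of 3.98. On the log2(signal + 16) scale used for every difference given here, which understates the change of dim genes, this was 1.92 ± 0.13 (standard error of the limma fit). That placed Gas6 at rank 5 among the rises of 12715 genes. The resistant mean was 129 ± 22.2, a difference of -0.73 ± 0.13 from DMSO cells and of -2.64 ± 0.13 from sensitive cells in rapamycin, which were 6.85 times as bright.

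Pros1, the second ligand and also a cofactor of the anticoagulant protein C, was measured by 1 probe set, 1426246_at. Its signals were 277, 250 and 242 in DMSO, 436, 416 and 410 in sensitive rapamycin and 101, 88.9 and 96.7 in resistant cells. The order of the groups was that of Gas6, with no overlap. The difference between sensitive cells with and without rapamycin was 0.68 ± 0.13, on a mean of 256 ± 18.4 in DMSO. The resistant line differed by -1.28 ± 0.13 from DMSO cells and by -1.97 ± 0.13 from sensitive cells in rapamycin.

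Axl, the receptor with the highest affinity for Gas6, was read mainly by 1423586_at. The DMSO signals were 4256, 4279 and 3381, the third array being the low one. The sensitive rapamycin signals were 6517, 5697 and 5259 and the resistant ones 2375, 2123 and 1959. The groups were again separate and in the same order. Sensitive cells in rapamycin lay 0.55 ± 0.10 above DMSO cells, or 0.44 without the third DMSO array. Resistant cells differed by -0.88 ± 0.10 from DMSO cells and by -1.43 ± 0.10 from sensitive cells in rapamycin.

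Mertk, the receptor best known for engulfment by macrophages and retinal pigment epithelium, had 1 probe set, 1422869_at. Its signals were 191, 204 and 202 in DMSO cells and 265, 312 and 229 in sensitive cells in rapamycin. The resistant arrays read 106, 80.3 and 80.2. The sensitive rapamycin arrays were the most spread, with an SD of 41.8 against 6.73 in DMSO, and the lowest of them was 229 against the highest DMSO value of 204. The difference under rapamycin was 0.40 ± 0.17, the smallest of the 4 genes that were higher. The resistant line stood at -1.04 ± 0.17 against DMSO cells and at -1.44 ± 0.17 against sensitive cells in rapamycin.

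**Figure D1:**
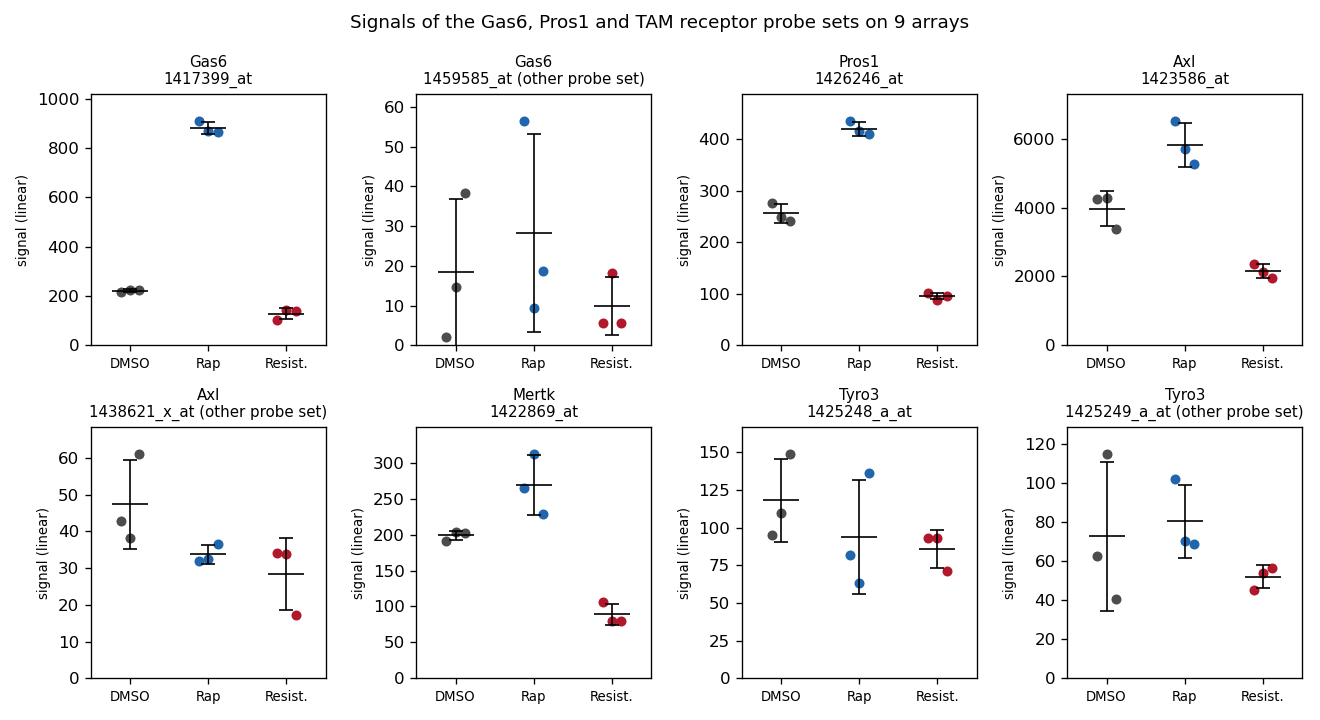
Linear signal of each of the 8 probe sets on the 9 arrays, with points for arrays and a bar with whiskers for the mean and SD of 3 arrays; DMSO and Rap are the sensitive cells and Resist. the resistant line in rapamycin. The bright probe sets of Gas6, Pros1, Axl and Mertk are highest in sensitive rapamycin cells and lowest in the resistant line, and those of Tyro3 overlap between both sensitive groups.

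Tyro3, the receptor most abundant in the nervous system, did not share this order. Its probe set 1425248_a_at read 95.4, 110 and 149 in DMSO, 82.0, 63.1 and 136 in sensitive rapamycin and 93.1, 93.3 and 70.9 in resistant cells. The sensitive groups overlapped, and so did both rapamycin groups. All resistant arrays were below all DMSO arrays, but only by the step from 93.3 to 95.4. The differences were -0.33 ± 0.26 under rapamycin in sensitive cells, -0.39 ± 0.26 for resistant against DMSO cells and -0.06 ± 0.26 between both rapamycin groups. The last of these ran from -0.27 to 0.20 when single arrays were left out. The other Tyro3 probe set, 1425249_a_at, read 62.7, 115 and 40.7 in DMSO, 102, 70.4 and 68.9 in sensitive rapamycin and 45.5, 54.1 and 56.7 in resistant cells. On this one the resistant arrays lay below the sensitive rapamycin arrays and overlapped with DMSO, so the Tyro3 probe sets differed in which pair of groups was separate.

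The remaining probe sets were dim. The second Gas6 probe set, 1459585_at, was under the filter, with signals from 2.06 to 56.5 and overlapping groups in every comparison. The second Axl probe set, 1438621_x_at, whose suffix marks probes that may also bind other transcripts, had 42.9, 38.2 and 61.1 in DMSO. It had 32.1, 32.5 and 36.7 in sensitive rapamycin and 34.0, 34.0 and 17.1 in resistant cells. It thus ran against the bright Axl probe set in sensitive cells, at -0.33 ± 0.34, and with it in the resistant line, at -0.52 ± 0.34 against DMSO. With the mean of both Axl probe sets the rapamycin difference was 0.11 ± 0.11 in place of 0.55.

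With 1 probe set a gene, all arrays of sensitive rapamycin cells were above all DMSO arrays for 4 of the 5 genes, where 25.1% of 12715 genes were so separated upwards. All resistant arrays were below all DMSO arrays for 5 of 5 genes, against 29.6% of all genes downwards. They were below all sensitive rapamycin arrays for 4 of 5, against 35.3%. These counts come from the arrays on which the genes were chosen, so nothing is read from them. Across the 9 arrays the log2 signals of Pros1 and Axl had a Pearson correlation of 0.982, Pros1 and Mertk 0.974, Axl and Mertk 0.963, and Gas6 had 0.898, 0.891 and 0.833 with Pros1, Axl and Mertk. Tyro3 had between -0.07 and 0.14 with the others. These values describe 9 arrays in 3 groups that share lines and treatments.

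**Figure D2:**
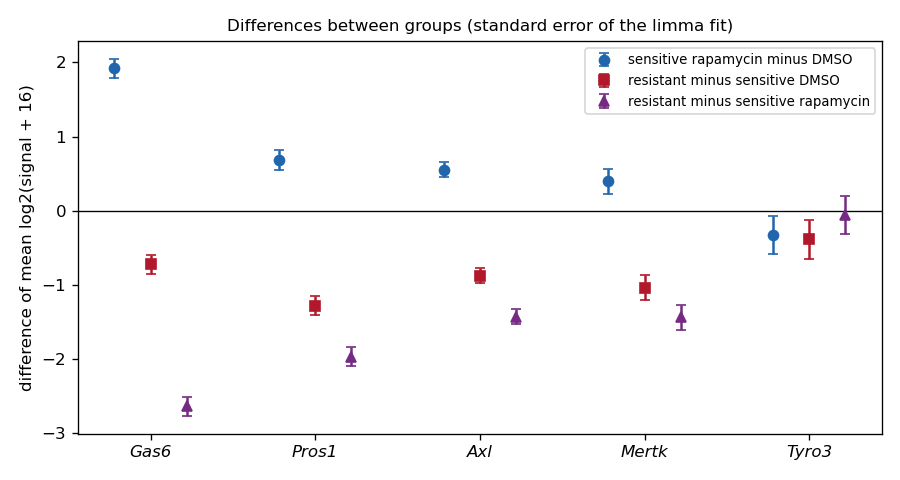
Difference of mean log2(signal + 16) for each gene in the 3 comparisons, with whiskers of 1 standard error of the limma fit (3 arrays a group). Gas6, at 1.92, lies furthest above 0 in sensitive rapamycin against DMSO cells, and the differences of Gas6, Pros1, Axl and Mertk involving the resistant line all lie below 0.

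Genes of the surrounding pathway were taken from 12 lists of 151 genes, of which 124 were tested. The lists were chosen with earlier results of these data known, so the counts and p-values below describe these arrays. In sensitive cells 52 of them (41.9%) rose under rapamycin and 8 (6.45%) fell at an adjusted p under 0.05, against 20.4% and 15.2% of all tested genes. The median change was 0.23 beside 0.03 over all genes. In the resistant line against DMSO cells 28 (22.6%) were higher and 46 (37.1%) lower, against 25.9% and 25.8% of all genes, with a median of -0.17 beside -0.07. Averaging the probe sets of each gene left 14 higher, and 2811 of all 12715 genes. Against sensitive cells in rapamycin 19 (15.3%) were higher and 63 (50.8%) lower, against 26.4% and 30.1%, with a median of -0.38 beside -0.08. In that comparison 28 were higher and 51 lower after centring on the 75th percentile, and 11 higher with the mean of the probe sets. The background moved as well. Of all 12715 genes 3892 were higher and 3240 lower after centring, against 3353 and 3833 before it. With the mean of the probe sets 3032 were higher. The shares over all genes given here are the background for the counts of each list below under the main settings. Counts under an alternative have a background of their own.

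**Figure D3:**
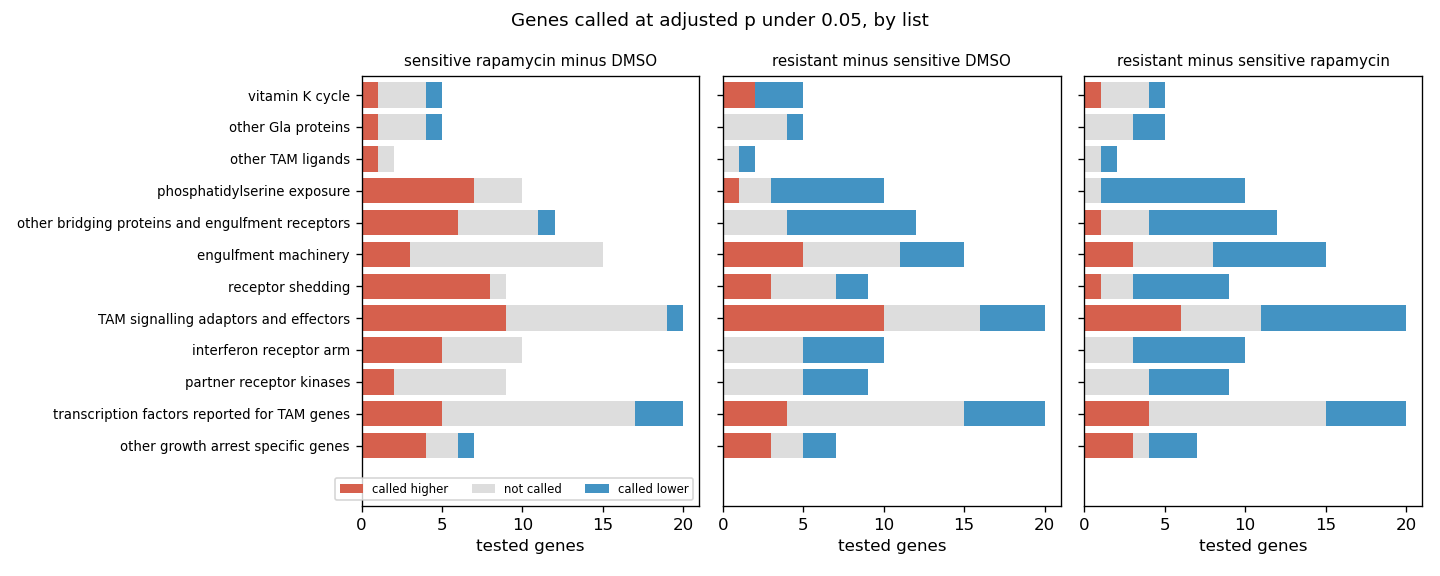
Number of tested genes in each of 12 pathway lists that were called higher, called lower or not called at adjusted p under 0.05, in each of the 3 comparisons. In the list of phosphatidylserine exposure 7 of 10 rose in sensitive rapamycin cells, beside 20.4% of all tested genes. In resistant against sensitive rapamycin cells 9 of 10 were lower, beside 30.1%.

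The ligands need vitamin K for their carboxylation, and the enzymes of that cycle were split. Vkorc1, the epoxide reductase that recycles the vitamin and is the target of warfarin, rose from 2664 ± 157 to 3694 ± 81.6 in sensitive cells (0.47 ± 0.07, adjusted p = 5.29e-05). Its paralogue Vkorc1l1 fell from 365 ± 33.3 to 199 ± 9.20 (-0.82 ± 0.11, adjusted p = 1.29e-05). The carboxylase Ggcx was at 104 ± 21.7 and 67.9 ± 12.5 (-0.51 ± 0.26, adjusted p = 0.154). Ggcx was lower in the resistant line than in DMSO cells, at 41.0 ± 5.60 (-1.06 ± 0.26, adjusted p = 0.00254). Aifm2, a vitamin K and ubiquinone reductase, was lower at 104 ± 10.6 against 189 ± 14.9 (-0.77 ± 0.15, adjusted p = 0.000413), and Vkorc1 was higher (0.31 ± 0.07, adjusted p = 0.00158). Vkorc1l1 was higher too (0.40 ± 0.11, adjusted p = 0.00497, but 0.187 with the mean of its probe sets). Nqo1, another quinone reductase, was lower by its call (-0.51 ± 0.18, adjusted p = 0.0261), which was lost without the second DMSO array (0.122) and without the second (0.0987) or the third (0.0513) resistant array, and under both other scalings (0.0671 and 0.141).

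Of the other Gla proteins 5 of 13 were tested. Mgp, matrix Gla protein, an inhibitor of calcification, had the order of Gas6: 658 ± 136 in DMSO, 1606 ± 94.95 in sensitive rapamycin and 369 ± 6.26 in resistant cells. It rose in sensitive cells (1.29 ± 0.12, adjusted p = 1.28e-07) and was lower in the resistant line than in DMSO cells (-0.79 ± 0.12, adjusted p = 1.71e-05). The membrane Gla protein Prrg1 changed by -0.59 ± 0.19 under rapamycin (adjusted p = 0.0195). That call was lost without the second DMSO array (0.0582), the third DMSO array (0.0602) or the third sensitive rapamycin array (0.116). It was also lost without the trend in eBayes (0.0517). Prrg2 (0.04 ± 0.18), Prrg4 (0.41 ± 0.31) and F2 (-0.995 ± 0.504) did not pass. Lgals3, galectin-3, reported as a Mertk ligand, went from 10270 ± 1148 in DMSO cells to 12400 ± 606 in sensitive rapamycin cells and 3670 ± 247 in resistant cells. The difference from DMSO in the resistant line was -1.48 ± 0.09 (adjusted p = 5.23e-10). The smaller rise under rapamycin (0.28 ± 0.09, adjusted p = 0.0273) was lost without the first (0.0555) or the second (0.108) sensitive rapamycin array and after centring on the 75th percentile (0.124). Without the trend in eBayes it was lost too (0.0840). Tub, the other tested ligand of the list, was dim and changed by 0.44 ± 0.51 (adjusted p = 0.550).

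Genes that place phosphatidylserine on the cell surface or remove it, the lipid to which both ligands bind, were mostly higher with rapamycin and lower in the resistant line. In sensitive cells 7 of 10 rose, with a median of 0.51. Atp11a, a flippase that returns the lipid to the inner leaflet, rose from 597 ± 33.3 to 998 ± 108 (0.72 ± 0.10, adjusted p = 1.47e-05). The scramblase family members Plscr3 (0.67 ± 0.11, adjusted p = 7.04e-05) and Plscr2 (0.64 ± 0.14, adjusted p = 0.00135) rose as well. Of the same 10, 7 were lower and 1, Plscr3, was higher (0.31 ± 0.11, adjusted p = 0.0191; named as the only one) in resistant than in DMSO cells, with a median of -0.71. Without the first resistant array 5 fell, and 5 fell with the mean of the probe sets. The rise of Plscr3 was not called in either case, nor without the second DMSO array or without the trend in eBayes. Plscr2 went from 447 ± 76.7 to 77.9 ± 10.7 (-2.29 ± 0.14, adjusted p = 3.06e-10), the calcium-gated scramblase Ano6 from 1604 ± 8.81 to 763 ± 95.5 (-1.06 ± 0.09, adjusted p = 2.56e-08) and Plscr1 from 484 ± 23.2 to 233 ± 12.7 (-1.01 ± 0.10, adjusted p = 2.22e-07). Between both rapamycin groups 9 of 10 were lower in the resistant line, with Plscr2 at -2.94 ± 0.14 and Plscr4 at -1.53 ± 0.14.

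Other receptors and bridging proteins of engulfment included some of the largest changes among the lists. Lrp1, an engulfment receptor for calreticulin-marked cells, rose from 429 ± 3.14 to 1470 ± 215 under rapamycin (1.73 ± 0.13, adjusted p = 7.92e-09). Thrombospondin 1, Thbs1, a bridging protein for integrins and CD36, rose from 930 ± 67.5 to 3032 ± 401 (1.68 ± 0.10, adjusted p = 5.03e-10). The integrin subunit Itgb5, which with Itgav forms a receptor that cooperates with Mertk, rose from 1536 ± 169 to 3946 ± 255 (1.36 ± 0.08, adjusted p = 9.88e-10). In all 6 of 12 rose and 1, Scarb1, fell (-0.43 ± 0.09, adjusted p = 0.00102; it was named because it was the only fall). Resistant cells had 8 of 12 lower than DMSO cells, with a median of -0.78. Thbs1 was at 127 ± 10.5 (-2.72 ± 0.10, adjusted p = 5.14e-13), Lrp1 at 168 ± 33.0 (-1.29 ± 0.13, adjusted p = 1.32e-07), and Itgav fell from 4206 ± 225 to 1569 ± 95.04 (-1.41 ± 0.10, adjusted p = 2.31e-09). Against sensitive cells in rapamycin, the resistant line had Thbs1 at -4.41 ± 0.10, Lrp1 at -3.02 ± 0.13 and Itgb5 at -2.24 ± 0.08.

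Of 15 tested genes of the intracellular engulfment machinery 3 rose under rapamycin, near the share of 20.4% over all tested genes. They were the lipid transporter Abca7 (1.24 ± 0.16, adjusted p = 8.74e-06), the adaptor Gulp1 (0.57 ± 0.08, adjusted p = 3.16e-05) and the GTPase Rhog (0.35 ± 0.09, adjusted p = 0.00650). Between resistant and DMSO cells 5 were higher and 4 lower, near the shares of 25.9% and 25.8% over all genes. Rhog (-0.68 ± 0.09, adjusted p = 8.75e-06) and Crk (-0.51 ± 0.08, adjusted p = 2.22e-05) were among the lower ones. Trio was higher (0.45 ± 0.10, adjusted p = 0.00134, but 0.898 with the mean of its probe sets). Without the first or the second resistant array 3 were higher and 3 lower, and with the mean of the probe sets 1 was higher.

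TAM receptors are released from the cell surface by the protease ADAM17 and relatives, and their stubs are cut by gamma-secretase. Of 9 tested genes of this shedding list 8 rose in sensitive rapamycin cells, with a median of 0.52. They included Timp3, an inhibitor of ADAM17 (198 ± 37.2 to 407 ± 40.3, 0.99 ± 0.16, adjusted p = 8.57e-05), the secretase subunit Psen2 (180 ± 28.2 to 358 ± 16.5, 0.94 ± 0.14, adjusted p = 3.24e-05) and Rhbdf1, which carries ADAM17 to the surface (1147 ± 13.3 to 1699 ± 57.8, 0.56 ± 0.09, adjusted p = 0.000107). Between resistant and DMSO cells 3 rose and 2 fell, near the shares of 25.9% and 25.8% over all genes. The secretase subunit Psenen rose from 2513 ± 230 to 4111 ± 124 (0.71 ± 0.08, adjusted p = 4.24e-07) and Rhbdf1 fell to 746 ± 106 (-0.62 ± 0.09, adjusted p = 1.65e-05). Adam17 was called there (0.26 ± 0.11, adjusted p = 0.0460) but not without the first (0.124) or the third (0.0637) DMSO array, the second sensitive rapamycin array (0.0503) or the first (0.131), the second (0.0676) or the third (0.101) resistant array. The mean of its probe sets gave 0.11 (adjusted p = 0.429), and the replicate block an adjusted p of 0.0618. Without the trend in eBayes the adjusted p was 0.0590, and without the filter 0.0578. Only 1 gene of the list rose without the first or the third DMSO array, or without the second or the third resistant array.

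**Figure D4:**
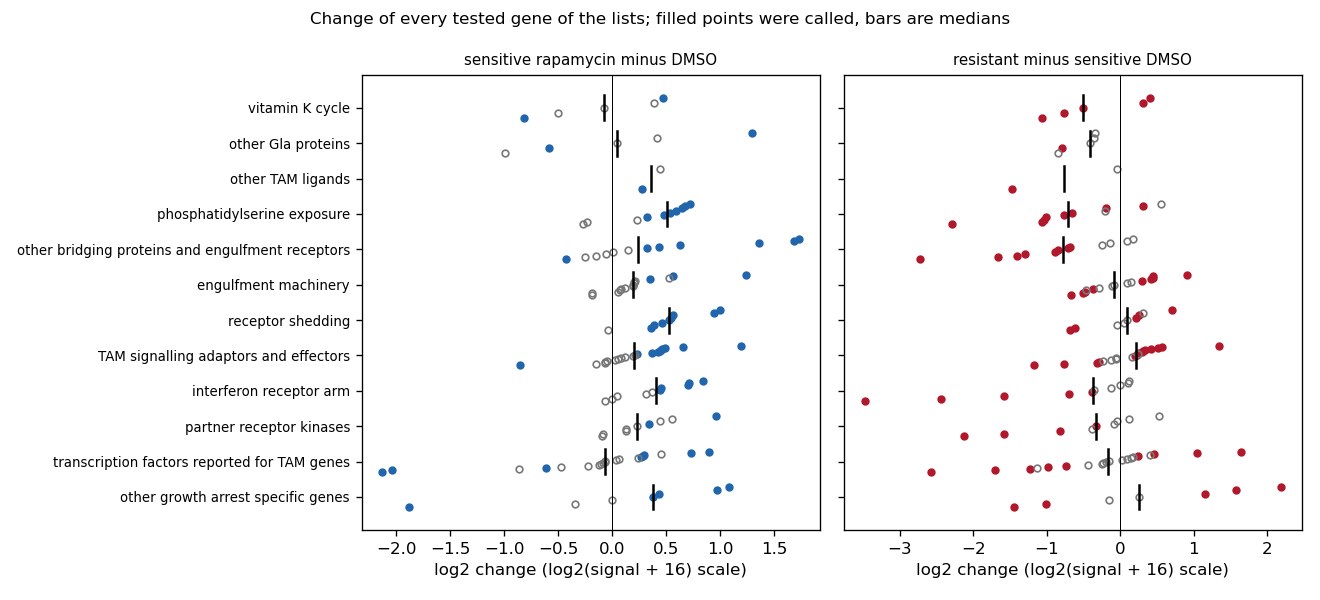
Log2 change of each tested gene of the 12 lists in sensitive rapamycin against DMSO cells and in resistant against DMSO cells; each point is 1 gene, filled where it was called at adjusted p under 0.05, and the bars are list medians. In the receptor shedding list the median is 0.52 in the left panel and 0.09 in the right panel, and in the list of bridging proteins it is 0.23 and -0.78.

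Downstream of the receptors, 9 of 20 adaptors and effectors rose and 1 fell in sensitive rapamycin cells, with a median of 0.20. The fall, of the dim gene Ubash3b (-0.86 ± 0.31, adjusted p = 0.0421; named after its value was seen), was lost on leaving out any 1 array other than the third DMSO array. Gab1, a docking protein (0.49 ± 0.08, adjusted p = 0.000185), and Pik3ca, a catalytic subunit of phosphoinositide 3-kinase (0.46 ± 0.09, adjusted p = 0.000421), rose. Tns2, a tensin reported to bind Axl, had 180 ± 19.9 and 432 ± 65.7 (1.19 ± 0.35, adjusted p = 0.0127), a call lost without the first (0.0553) or the second (0.0540) sensitive rapamycin array. It was lost without the trend in eBayes as well (0.0926). Without the first sensitive rapamycin array 6 of the list rose. Between resistant and DMSO cells 10 rose and 4 fell. These counts depended on the probe set rule: averaging the probe sets of each gene left 5 higher and 2 lower. Under that rule 2811 of all 12715 genes were higher. With no trend in eBayes 6 of the list were higher and 3 lower. Leaving out resistant array 1, or array 3, also left 6 higher. The adaptor Shc1 fell (-0.77 ± 0.11, adjusted p = 1.58e-05). The phospholipase Plcg1 rose from 430 ± 24.8 to 1122 ± 56.9 (1.35 ± 0.08, adjusted p = 3.95e-10), though with the mean of its probe sets it did not pass (0.44, adjusted p = 0.0969). The ubiquitin ligase Cbl was higher (0.56 ± 0.17, adjusted p = 0.0101), which was lost without the first resistant array (0.0718).

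TAM receptors restrain innate signalling through the type I interferon receptor, which leads to the inhibitors Socs1 and Socs3. In sensitive rapamycin cells 5 of 10 tested genes of this arm rose, with a median of 0.40, among them Stat2 (208 ± 27.9 to 383 ± 5.91, 0.84 ± 0.19, adjusted p = 0.00233), Stat3 (0.71 ± 0.10, adjusted p = 1.74e-05) and the receptor chain Ifnar1 (408 ± 49.3 to 671 ± 41.5, 0.70 ± 0.11, adjusted p = 5.61e-05). Resistant cells had 5 of 10 lower than DMSO cells. Irf9, a DNA-binding factor of interferon signalling, went from 718 ± 40.2 to 49.8 ± 7.40 (-3.48 ± 0.12, adjusted p = 1.86e-13) and Socs3 from 598 ± 108 to 189 ± 29.2 (-1.58 ± 0.14, adjusted p = 3.38e-08). Stat3 was lower as well (-0.70 ± 0.10, adjusted p = 9.57e-06, but 0.349 with the mean of its probe sets). Stat2 fell to 25.8 ± 9.19, near the filter (-2.44 ± 0.19, adjusted p = 1.07e-08, named after its value was seen). Ifnar1 did not pass in the resistant line against DMSO cells (-0.13 ± 0.11, adjusted p = 0.356).

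Of 9 receptor kinases that are reported to pair or cooperate with Axl, 2 rose in sensitive rapamycin cells, near the share of 20.4% over all tested genes. Pdgfrb, the PDGF receptor of mesenchymal cells, rose from 729 ± 26.5 to 1447 ± 211 (0.96 ± 0.10, adjusted p = 6.45e-07). Egfr was called (0.34 ± 0.12, adjusted p = 0.0304) but not without the first (0.0514) or the second (0.118) DMSO array, nor without the first (0.113) or the second (0.0991) sensitive rapamycin array. It was also lost after centring (0.0529), and the mean of its probe sets gave 0.10 (adjusted p = 0.714). Resistant cells had 4 of 9 lower than DMSO cells: Pdgfrb to 233 ± 9.55 (-1.58 ± 0.10, adjusted p = 5.03e-10), Egfr from 369 ± 30.0 to 202 ± 12.6 (-0.82 ± 0.12, adjusted p = 1.16e-05), Pdgfra (-2.12 ± 0.32, adjusted p = 2.36e-05; dim, and named after its value was seen) and Met (-0.33 ± 0.08, adjusted p = 0.00293). Met did not pass after centring on the 75th percentile (0.0535).

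Transcription factors reported to act on TAM genes did not move one way. In sensitive rapamycin cells 5 of 20 rose and 3 fell, near the shares of 20.4% and 15.2% over all tested genes, with a median of -0.07. The AP-1 members Fos (451 ± 31.1 to 91.9 ± 20.8, -2.13 ± 0.19, adjusted p = 1.34e-07) and Fosl1 (520 ± 102 to 114 ± 12.9, -2.04 ± 0.16, adjusted p = 1.50e-08) fell. Their relative Fosl2 rose (0.90 ± 0.14, adjusted p = 6.82e-05, but 0.105 with the mean of its probe sets). Without the second DMSO or the second sensitive rapamycin array 3 of the list rose. Between resistant and DMSO cells 4 rose and 5 fell, beside 25.9% and 25.8% of all genes. Fos (-2.58 ± 0.19, adjusted p = 4.92e-09) and Junb (-1.71 ± 0.10, adjusted p = 1.18e-10) were lower and Tead2, a partner of YAP, higher (308 ± 8.50 to 993 ± 79.0, 1.64 ± 0.10, adjusted p = 2.02e-10).

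Other genes carry growth arrest specific in a present or former name, Gas2l1 and Gas2l3 only as being like Gas2. They do not share the structure of Gas6. In sensitive rapamycin cells 4 of 7 rose and 1 fell. Gas1, a membrane protein that binds Hedgehog, rose from 821 ± 128 to 1620 ± 154 (0.97 ± 0.10, adjusted p = 8.47e-07). The noncoding RNA Gas5 rose from 1308 ± 99.0 to 2779 ± 235 (1.08 ± 0.08, adjusted p = 1.17e-08). The cytoskeletal gene Gas2l3 fell (-1.88 ± 0.13, adjusted p = 3.25e-09), and without the second DMSO array 2 genes of the list fell. In the resistant line against DMSO cells Gas5 was higher still (6026 ± 215, 2.19 ± 0.08, adjusted p = 5.21e-13). Gas2 rose to 430 ± 6.39 (1.57 ± 0.16, adjusted p = 3.42e-07, but 0.0698 on averaging its probe sets) and Gas2l1 fell to 338 ± 37.2 (-1.44 ± 0.09, adjusted p = 5.11e-10). Pmp22, a myelin protein once called Gas3, read 3018 ± 146 in DMSO, 3919 ± 246 in sensitive rapamycin and 1488 ± 17.1 in resistant cells, the order of Gas6 (0.37 ± 0.07, adjusted p = 0.000508, and -1.01 ± 0.07, adjusted p = 2.66e-09, against DMSO; named after its values were seen). Between resistant and DMSO cells 3 of 7 were called higher and 2 lower, where the Gas6 difference was -0.73 ± 0.13.

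Among 6256 candidate genes with a mean above the median, those whose log2 signals followed Gas6 most closely over the 9 arrays were Zfp955a (Pearson r = 0.994), Odr4 (0.994), Pofut2 (0.992), Phf14 (0.991) and Dnajc18 (0.990). Their ranges were narrower than that of Gas6: Dnajc18 read 499 in DMSO, 898 in sensitive rapamycin and 381 in resistant cells, and Pofut2 read 1709, 2693 and 1509. For Pros1 they were Erlec1 (0.998), Parva (0.998) and Ids (0.998), and for Axl Timp2 (0.996), Wdr1 (0.995) and Tmbim6 (0.995). For Mertk they were Epb41l3 (0.991), Tbl1x (0.990) and Ift27 (0.988). The closest to Tyro3 were Rab23 (0.866), Ccdc174 (0.815) and Map2k5 (0.804). With 9 arrays in 3 groups, such values rest mainly on the order of the group means, and they are given as a description.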

How the data were processed

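Total RNA of 9 samples was measured on Affymetrix arrays, 3 for each group; titles gave the group and number of each. Each deposited value is the intensity (signal, linear scale) of a probe set; GCOS 1.4 produced it, per the submitters' processing notes, and the summary algorithm is not given in the sources used here. The trimmed mean of each array, leaving out 2% at either end, was 250. Genes were named from the platform annotation by probe sets with a single symbol.

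Signals were taken as log2(signal + 16), without further scaling. Probe sets above the 40th percentile of mean log2 signal stayed, the brightest one standing for its gene, which gave 12715 genes. They were fitted over all 9 arrays with limma 3.58.1 in R 4.3.3 (eBayes with a trend), and adjusted p-values are Benjamini-Hochberg values over all genes in 1 comparison, called under 0.05. Errors (±) are standard errors for log2 changes and SDs of 3 arrays for signals. Further probe sets of the 5 genes were fitted at the probe set level. The fit was tested on simulated data. The number of arrays limits the precision. The members and lists were chosen with earlier results of these data known. Genes named from a list were up to 3 called genes a comparison with the largest change, without overlap between groups and with the higher mean at or above the median gene, and all genes of lists with 5 or fewer tested; some of the third comparison are left out. Genes most like a member were the 5 (Gas6) or 3 with the highest correlation, clone and predicted names left out. Alternatives were the pseudocount, the scaling, the filter, the probe set rule, the trend, a replicate block and leaving out each array. Promoters are from RefSeq (GRCm38.p6), matched for 5 of 5 genes by symbol.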

Additional observations from a re-analysis of the deposited data

How the results depend on the processing

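The direction of Gas6, Pros1, Axl and Mertk was kept in each comparison under each alternative run. Within 1 SD between replicates or, for counts, within 1.5 times, 439 results under alternatives stayed, against 20 that did not. Many of the 439 could not have moved, so their number overstates the stability. For Gas6, Pros1, Axl, Mertk and Tyro3 dropping the filter or the trend, or adding the replicate block, left every difference the same. Leaving out an array of the group absent from a comparison also left the differences of that comparison the same. A pseudocount of 64 gave Gas6 differences of 1.73, -0.57 and -2.30 (sensitive rapamycin against DMSO, resistant against DMSO, resistant against sensitive rapamycin), Pros1 differences of 0.60, -1.0 and -1.60, and Mertk differences of -0.79 and -1.12 in the last 2 comparisons. For Pros1 in the last 2 comparisons a pseudocount of 4 gave -1.38 and -2.09, centring on the 75th percentile -1.19 and -1.84 and quantile normalization -1.14 and -1.82; Mertk was at -1.26 in the last under quantile normalization. With the mean of its probe sets Axl was at 0.11, -0.70 and -0.81; 14 pathway genes were higher in the resistant line than in DMSO cells and 11 higher than in sensitive rapamycin cells. Centring on the 75th percentile moved the median of all genes between both rapamycin groups from -0.08 to 0.05. Leaving out single arrays gave 1.89 to 1.93, -0.80 to -0.59 and -2.72 to -2.51 for Gas6, 0.65 to 0.74, -1.32 to -1.23 and -2.01 to -1.92 for Pros1, 0.44 to 0.62, -0.99 to -0.81 and -1.50 to -1.34 for Axl, 0.29 to 0.50, -1.16 to -0.99 and -1.55 to -1.33 for Mertk, and -0.59 to -0.12, -0.51 to -0.23 and -0.27 to 0.20 for Tyro3. The causes were not tested. Same-numbered arrays did not deviate together over all genes (correlations of -0.08 to 0.02), which does not exclude a pairing in single genes. With the replicate block the standard error of the Axl rapamycin difference went from 0.103 to 0.0785, and those of Gas6, Pros1, Mertk and Tyro3 rose slightly. With the block 50 pathway genes rose and 7 fell under rapamycin, against 52 and 8 without it. Signals near or under the filter, as those of the second Gas6 and Axl probe sets, limit what can be separated. The signals of Tyro3 lay above it. Its SD between replicates was 0.342 on the log2 scale, against 0.0775 to 0.169 for the other 4 genes.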
